A study of Mus musculus with 4 samples.

Results

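The genes described here are the 46 genes of mitosis and chromosome segregation, taken by symbol from a table of 37305 rows that covers the whole transcriptome of mouse natural killer (NK) cells. They were chosen for their known role, though with earlier results of these data known. All 46 were found, each on a single row, and all 46 passed the filter for testing, a mean of at least 1 FPKM (fragments counted per length of transcript and per size of library, so that levels of different genes can be compared). The study asked how NK cells respond to DKK2 (Dickkopf 2), a secreted modulator of Wnt signalling that acts through LRP5 and LRP6. Both groups were primary splenic NK cells of C57BL/6 mice at postnatal day 56, and both were first cultured for 24 hours with recombinant mouse IL-15 at 50 ng/ml. The control group (2 libraries) was then mock treated and the DKK2 group (2 libraries) received DKK2 at 200 ng/ml, each for another 24 hours. How the NK cells were separated, how pure they were, and whether replicates came from separate animals or cultures was not stated. The p-values therefore cover the spread of these 4 libraries alone, which may be technical.

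A dividing cell condenses its replicated chromosomes, builds a spindle, attaches each chromosome through its kinetochore, and then cuts cohesin so that the sister chromatids part before the cell splits. Transcripts of the proteins that do this are made mostly from late S phase to mitosis, so their amount in a bulk sample is commonly read as a sign of how many cells are cycling. Resting splenic NK cells divide little, and IL-15 is the cytokine that drives their survival and proliferation. In a bulk sample, fewer cycling cells and less RNA per cycling cell cannot be told apart, nor can cycling NK cells and cycling cells of another type.

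Many promoters of this gene class are bound by the DREAM and MuvB complexes, which repress them in resting cells and, with B-MYB and FOXM1, activate them in dividing cells. Known elements for this are short: the cell cycle genes homology region (CHR, searched here as TTTGAA) and the CCAAT box bound by NF-Y (searched as CCAAT). RefSeq promoter sequences on GRCm38.p6, which reach from 250 bases before to 50 bases after a gene's start, were matched by symbol for 38 of the 46 genes. Promoters on 1 chromosome, and any of another length, were left out beforehand, for these genes and for the background alike. Both strands were searched, and a CHR and a CCAAT match can share at most 1 letter at their ends. CHR stood in the promoters of 27 of the 38 genes (71.1%, 95% Wilson interval 55.2 to 83.0%), against 20.2% of 27025 genes in the promoter table and 14.6% of the 7536 of them tested here. CCAAT stood in 28 of the 38 (73.7%, 58 to 85%), against 41.1% and 43.6%. Both motifs were present in 24 and neither in 7. A window of 50 bases on either side of the start site, chosen after the positions were seen, held a CHR match in 24 of the 38 genes (63.2%), against 3.94% of the genes tested. Matches are a description of the letters and not of binding.

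The 5 promoters below are shown for the 2 most abundant transcripts (Top2a and Cdk1), for Cenpf, which had the highest mean log2(FPKM + 1) with DKK2 relative to control, for Espl1, which had the lowest among those with a promoter sequence, and for Birc5, the third most abundant, as a case without either motif. Capitals mark CHR and CCAAT on either strand, so that ATTGG is CCAAT and TTCAAA is CHR read from the other strand. Cdk1 lies at chr10:69352863-69353162 on the minus strand, with CHR beginning 71 and 15 bases before the start site and 3 CCAAT boxes. Top2a lies at chr11:99024140-99024439 on the minus strand, with CHR 179 and 23 bases before the start site and 6 CCAAT boxes. Cenpf lies at chr1:189688037-189688336 on the minus strand, with CHR beginning 3 bases after the start site and CCAAT 132 and 71 bases before it. Espl1 lies at chr15:102296043-102296342 on the plus strand, with CHR 27 and CCAAT 44 bases before the start site. Birc5 lies at chr11:117848987-117849286 on the plus strand.
Cdk1: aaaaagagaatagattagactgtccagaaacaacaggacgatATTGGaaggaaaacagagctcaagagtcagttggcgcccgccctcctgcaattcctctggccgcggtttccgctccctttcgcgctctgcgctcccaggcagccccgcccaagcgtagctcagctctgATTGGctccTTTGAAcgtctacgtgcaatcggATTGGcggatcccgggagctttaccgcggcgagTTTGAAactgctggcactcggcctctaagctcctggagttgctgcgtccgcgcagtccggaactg
Top2a: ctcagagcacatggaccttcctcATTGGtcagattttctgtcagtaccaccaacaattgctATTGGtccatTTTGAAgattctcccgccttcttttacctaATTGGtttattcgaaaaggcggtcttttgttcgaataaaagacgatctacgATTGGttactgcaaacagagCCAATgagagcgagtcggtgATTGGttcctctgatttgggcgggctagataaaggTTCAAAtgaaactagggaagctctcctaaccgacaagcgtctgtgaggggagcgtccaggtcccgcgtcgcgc
Cenpf: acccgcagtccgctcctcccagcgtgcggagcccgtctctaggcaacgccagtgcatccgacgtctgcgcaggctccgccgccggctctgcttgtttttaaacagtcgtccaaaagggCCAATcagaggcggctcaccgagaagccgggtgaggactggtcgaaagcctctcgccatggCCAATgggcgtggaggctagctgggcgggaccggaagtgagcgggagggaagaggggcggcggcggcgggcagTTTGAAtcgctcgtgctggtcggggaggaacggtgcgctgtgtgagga
Espl1: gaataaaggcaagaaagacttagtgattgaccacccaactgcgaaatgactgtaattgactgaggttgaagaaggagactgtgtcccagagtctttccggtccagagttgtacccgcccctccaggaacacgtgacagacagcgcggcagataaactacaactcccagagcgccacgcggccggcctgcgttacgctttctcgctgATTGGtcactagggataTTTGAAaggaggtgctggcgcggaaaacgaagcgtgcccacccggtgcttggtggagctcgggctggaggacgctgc
Birc5: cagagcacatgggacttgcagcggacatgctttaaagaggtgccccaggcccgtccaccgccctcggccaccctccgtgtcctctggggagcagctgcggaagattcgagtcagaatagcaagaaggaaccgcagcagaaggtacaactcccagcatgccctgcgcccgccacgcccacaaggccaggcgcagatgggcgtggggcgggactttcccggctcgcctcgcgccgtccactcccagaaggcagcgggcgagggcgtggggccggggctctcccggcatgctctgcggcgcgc

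Mitosis transcripts were abundant in all 4 libraries, controls included. Their mean level ran from 8.02 FPKM for Espl1 to 355 FPKM for Top2a, with a median of 57.5 FPKM over the 46 genes, while the median of the 12275 genes tested lay between 12.4 and 14.1 FPKM in the 4 libraries. In every library 41 of the 46 lay above the 50th percentile of the genes tested. The exceptions were Ccnb1, Ttk, Cdc25c, Anln and Espl1. The summed level of the 46 genes was 2990 and 3290 FPKM in control replicates 1 and 2 and 3910 and 2860 FPKM in DKK2 replicates 1 and 2. DKK2 replicate 1 was thus the highest and DKK2 replicate 2 the lowest of the 4. The sum over all genes tested was also highest and lowest in these libraries. It was 1080000 and 1070000 FPKM in the controls and 1270000 and 889000 FPKM with DKK2, so this order is not particular to the mitosis genes.

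**Figure D1:**
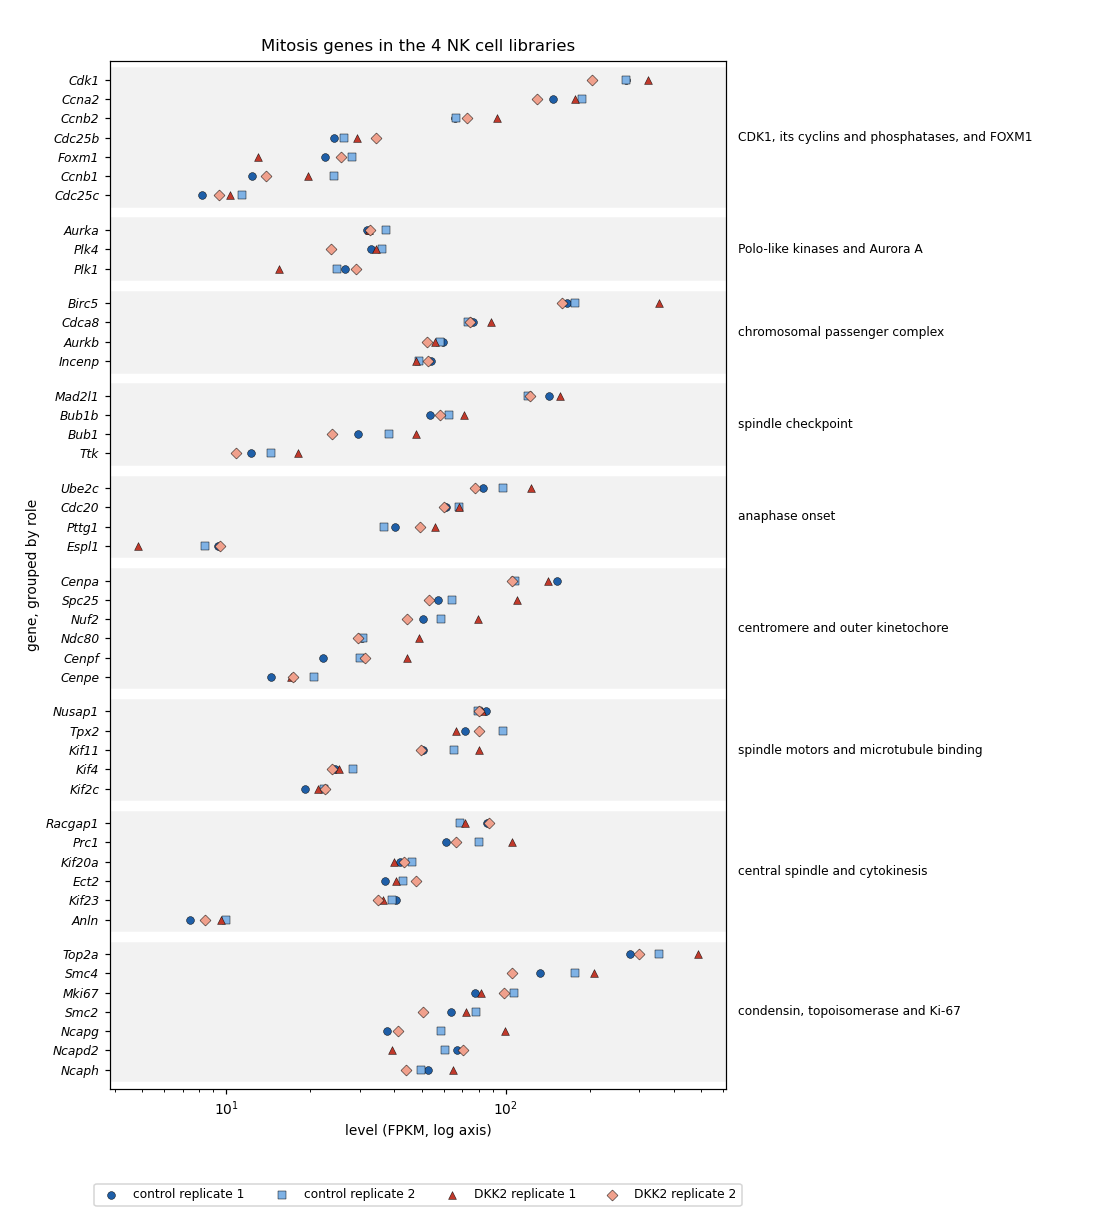
Level of each of the 46 mitosis genes (FPKM, log axis) in each library, with genes grouped by role and ordered by mean within a role. Blue symbols are the 2 controls and red symbols the 2 DKK2 libraries. DKK2 replicate 1 (triangles) is the highest library in 21 genes and DKK2 replicate 2 (diamonds) the lowest in 19.

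No mitosis gene passed the test for a difference between DKK2 and control. Of the 46, 24 had a higher and 22 a lower mean with DKK2 (30 and 16 with median scaling, 29 and 17 with quantile normalization), and 0 passed limma in either direction (Benjamini-Hochberg adjustment over 12275 genes, adjusted p = 0.9996 for each of the 46). Over all genes tested limma called 0.00815% as higher and 0.0244% as lower, that is 1 and 3 genes, so calls were rare for any gene. The count below an unadjusted p of 0.05 was 0 of the 46, against 1.84% of all genes (226), and the smallest unadjusted p was 0.131, for Pttg1. The median log2 fold change of the 46 was 0.02, with single genes between -0.43 and 0.51, beside a median of -0.05 over all genes tested. Fold changes are DKK2 minus control on the log2(FPKM + 1) scale, with the standard error (SE) of the moderated fit, 0.23 to 0.50 for these genes. The median half-width of the 95% intervals was 0.75, so smaller differences would in general not reach an unadjusted p under 0.05 in limma at this spread. To pass after adjustment over 12275 genes, a difference had to be larger still. Of the 24 genes whose fold changes are given below, 21 changed sign when some 1 library was left out. The 24 do not include Ccnb2, Cdc25b, Pttg1, Aurkb and Kif23. Their groups did not overlap, so leaving out 1 library cannot change their sign. The same holds for Cenpf, which is among the 24.

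In 4 of the 46 genes both DKK2 libraries lay above both controls (8.7%, against 11.8% of all genes tested), namely Ccnb2, Cdc25b, Pttg1 and Cenpf. Both DKK2 libraries lay below both controls for 2, Aurkb and Kif23 (4.35%, against 14.8%). These shares lie below the background of the whole table. The smallest two-sided p that exact permutation of 2 libraries against 2 allows is 0.333.

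**Figure D2:**
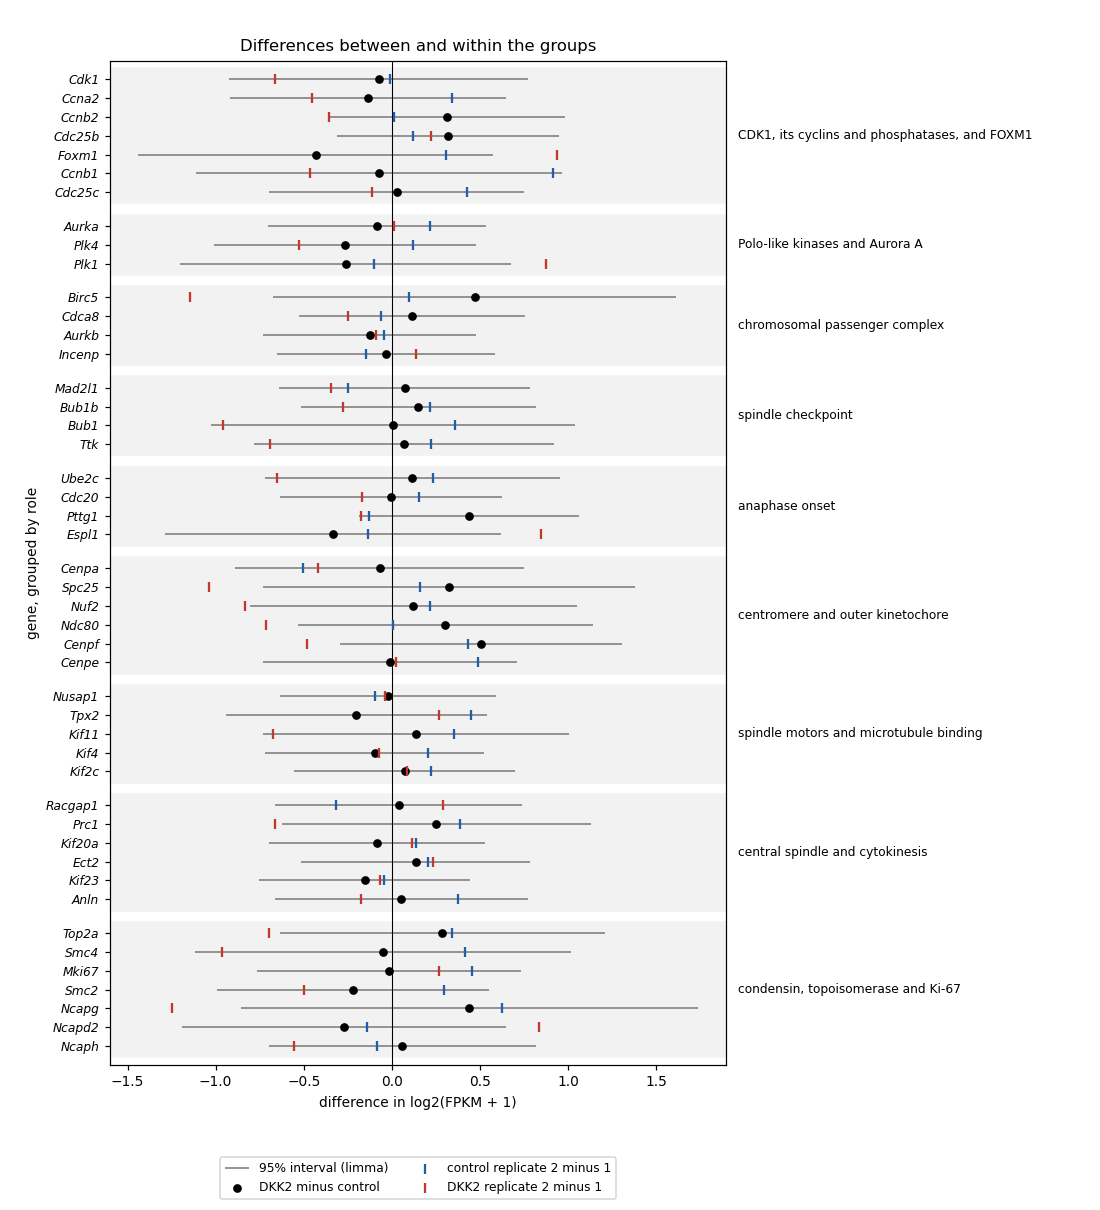
Difference in log2(FPKM + 1) for each mitosis gene. Black points are DKK2 minus control with limma's 95% interval (grey line), and ticks are the difference between the 2 controls (blue) and between the 2 DKK2 libraries (red). Every interval includes 0, and the ticks often lie farther from 0 than the black points. The median distance is 0.437 for the DKK2 pair, 0.217 for the control pair and 0.124 for DKK2 minus control. Ticks compare single libraries, while black points compare means of 2 libraries, which vary less.

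Entry into mitosis is set by CDK1 with its A and B cyclins, by the CDC25 phosphatases that remove inhibitory phosphates from CDK1, and by the transcription factor FOXM1. Cdk1, the kinase itself, was at 270.5 and 268 FPKM in control replicates 1 and 2 and at 322 and 203 FPKM in DKK2 replicates 1 and 2 (-0.07 ± 0.33 SE, 95% interval -0.92 to 0.77). The controls were nearly equal, and the DKK2 libraries lay on either side of them. Cyclin A2 (Ccna2), which acts in S phase and early mitosis, was at 148 and 187 FPKM in control libraries and 177 and 129 FPKM with DKK2 (-0.14 ± 0.30). Cyclin B1 (Ccnb1), the main mitotic partner of CDK1, was at 12.4 and 24.3 FPKM and 19.6 and 13.9 FPKM (-0.07 ± 0.40). Its controls differed more than those of any other of the 46 genes, by 0.92 in log2, and enclosed both DKK2 libraries. Cyclin B2 (Ccnb2) was at 65.7 and 66.3 FPKM without and 93.2 and 72.5 FPKM with DKK2, without overlap.

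The phosphatase gene Cdc25b was likewise higher in both DKK2 libraries, at 29.4 and 34.4 FPKM against 24.2 and 26.4 FPKM. Cdc25c, a related phosphatase, was low throughout, at 8.2 and 11.4 FPKM in control libraries and 10.3 and 9.45 FPKM with DKK2, and its groups overlapped. Foxm1, which activates many of the genes named here, had the lowest log2 fold change of the 46, at 22.5 and 28.1 FPKM in control libraries and 13 and 25.8 FPKM with DKK2 (-0.43 ± 0.39, 95% interval -1.44 to 0.58). That value came from DKK2 replicate 1, since DKK2 replicate 2 lay between the controls, and without DKK2 replicate 1 the log2 fold change was 0.035. Over the 7 genes of this role 3 were higher and 4 lower, with a median of -0.07.

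Polo-like and Aurora kinases drive centrosome maturation and spindle assembly. Plk1, which acts from mitotic entry to cytokinesis, was at 26.7 and 24.8 FPKM in control libraries and at 15.5 and 29.2 FPKM with DKK2. DKK2 replicate 1 was the lowest of the 4 libraries for Plk1 and DKK2 replicate 2 the highest. Plk4, the kinase that starts centriole duplication, went the other way between the DKK2 libraries, at 34.4 and 23.6 FPKM against 33.04 and 36.01 FPKM in the controls (-0.27 ± 0.29). Aurka, which acts at the spindle poles, was steady at 31.98 and 37.3 FPKM without and 32.4 and 32.6 FPKM with DKK2 (-0.09 ± 0.24). All 3 had a lower mean with DKK2, and all 3 groups of values overlapped.

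The chromosomal passenger complex corrects faulty attachments and later marks the site of cleavage. Its kinase gene Aurkb was at 59.9 and 58.1 FPKM in control libraries and 55.7 and 52.3 FPKM with DKK2, a narrow gap with no overlap. Incenp, the scaffold, was at 54.1 and 48.8 FPKM and 47.9 and 52.7 FPKM, and Cdca8 (borealin) at 76.5 and 73.3 FPKM and 88.6 and 74.4 FPKM (0.12 ± 0.25). These 3 subunits stayed within a ratio of 1.21 between the highest and the lowest library. Birc5 (survivin), the fourth subunit, was at 165 and 177 FPKM in the controls, 354 FPKM in DKK2 replicate 1 and 159 FPKM in DKK2 replicate 2 (0.47 ± 0.44, 95% interval -0.67 to 1.61). Only DKK2 replicate 1 stood apart for Birc5, and without it the log2 fold change was -0.10.

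The spindle checkpoint holds back anaphase until every kinetochore is attached. Mad2l1, whose product binds and blocks CDC20, was at 143 and 120.2 FPKM in control libraries and 156 and 122 FPKM with DKK2 (0.07 ± 0.28). The checkpoint kinase genes Bub1b (0.15 ± 0.26) and Bub1 had their highest value in DKK2 replicate 1, Bub1 at 47.6 FPKM. Bub1b was at 53.6 and 62.5 FPKM without and 70.96 and 58.3 FPKM with DKK2, with overlap. For Bub1, DKK2 replicate 2 was at 24.01 FPKM, below the controls at 29.6 and 38.2 FPKM. Ttk, the kinase at the top of the checkpoint, was at 12.2 and 14.4 FPKM in control libraries and 18.1 and 10.8 FPKM with DKK2, again with the DKK2 libraries on either side of the controls. All 4 genes had a mean log2 fold change above 0, by 0.01 to 0.15, and DKK2 replicate 2 was lower than DKK2 replicate 1 in all 4.

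Anaphase starts when the anaphase-promoting complex, with its activator CDC20 and the ubiquitin-conjugating enzyme UBE2C, marks securin and cyclin B for destruction and thereby frees separase to cut cohesin. Cdc20 was at 60.9 and 67.8 FPKM in control libraries and 67.99 and 60.3 FPKM with DKK2 (-0.01 ± 0.24, 95% interval -0.64 to 0.62), one of the steadiest of the 46. Ube2c was at 83 and 97.8 FPKM and 123 and 77.7 FPKM (0.12 ± 0.32). Pttg1 (securin) was at 40.3 and 36.7 FPKM in control libraries and at 55.8 and 49.2 FPKM with DKK2, and its DKK2 libraries lay above both controls by more than either pair of replicates differed. Espl1 (separase) was at 9.32 and 8.4 FPKM and 4.84 and 9.5 FPKM (-0.33 ± 0.37), with DKK2 replicate 1 alone apart. Without that library the log2 fold change of Espl1 was 0.092.

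Kinetochores are built on centromeric chromatin that carries the histone variant CENP-A and end in the NDC80 complex, which holds the microtubules. Cenpa was at 153 and 108 FPKM in control libraries and 142 and 106 FPKM with DKK2 (-0.07 ± 0.32), and the replicate 1 libraries of both groups were the higher ones. The NDC80 complex genes among the 46, Spc25, Nuf2 and Ndc80, were highest in DKK2 replicate 1, while Spc24, its remaining subunit and not one of the 46, was highest in control replicate 1 (34.9 and 26.98 FPKM in the controls, 32.9 and 21.6 FPKM with DKK2). Spc25 was at 57.3 and 64.2 FPKM in the controls, 109.8 FPKM in DKK2 replicate 1 and 52.96 FPKM in DKK2 replicate 2 (0.33 ± 0.41). Nuf2 was at 50.6 and 58.9 FPKM and 79.8 and 44.4 FPKM, and Ndc80 at 30.7 and 30.8 FPKM and 49.1 and 29.6 FPKM. In Spc25, Nuf2 and Ndc80, DKK2 replicate 2 lay below both controls. Without DKK2 replicate 1 the log2 fold change of Spc25 was -0.19.

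The outer kinetochore protein gene Cenpf had the highest log2 fold change of the 46, at 22.1 and 30.2 FPKM in control libraries and 44.2 and 31.3 FPKM with DKK2 (0.51 ± 0.31, 95% interval -0.29 to 1.31). Its groups did not overlap, though DKK2 replicate 2 exceeded control replicate 2 by little. Cenpe, a kinetochore motor, was at 14.5 and 20.7 FPKM and 17.02 and 17.3 FPKM, with both DKK2 libraries between the controls.

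Spindle motors and microtubule-binding proteins shape the spindle. Nusap1, which bundles spindle microtubules near chromatin, was the steadiest of all 46, at 85.03 and 79.6 FPKM in control libraries and 82.1 and 80.03 FPKM with DKK2 (-0.02 ± 0.24). Its highest library exceeded its lowest by a ratio of only 1.07. Tpx2, the activator of Aurora A, was at 71.6 and 98.1 FPKM and 66.3 and 79.9 FPKM (-0.20 ± 0.29), with overlap. Kif11, the motor that pushes the poles apart, was at 50.8 and 65.2 FPKM in control libraries and 80.2 and 49.9 FPKM with DKK2, high in DKK2 replicate 1 alone. The chromokinesin Kif4 (24.5 and 28.5 FPKM and 25.3 and 23.98 FPKM) and the microtubule depolymerase Kif2c (19.1 and 22.4 FPKM and 21.2 and 22.6 FPKM) varied little.

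Cytokinesis follows from the central spindle. Racgap1 and Kif23 form the centralspindlin complex, which recruits ECT2, and PRC1 bundles the overlapping microtubules. Racgap1 was at 85.96 and 68.7 FPKM in control libraries and 71.4 and 87.4 FPKM with DKK2 (0.04 ± 0.27), and its groups overlapped. Kif23 was at 40.4 and 39.1 FPKM without and 36.5 and 34.8 FPKM with DKK2, a small gap without overlap. Prc1 was at 60.97 and 80.2 FPKM and 105 and 66.2 FPKM (0.25 ± 0.34), highest in DKK2 replicate 1, and without that library the log2 fold change was -0.078. The other genes of this role overlapped between the groups: Ect2 ranged from 37.1 to 47.7 FPKM, Kif20a, the motor that carries the passenger complex to the midzone, from 39.8 to 46.1 FPKM, and Anln, a scaffold of the contractile ring, from 7.44 to 9.96 FPKM.

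Condensin I compacts mitotic chromosomes, topoisomerase II alpha untangles them, and Ki-67 coats their surface. Top2a was at 278 and 354 FPKM in control libraries and 488 and 301 FPKM with DKK2 (0.29 ± 0.36, 95% interval -0.64 to 1.21). The DKK2 replicate 2 value lay between the controls, and without DKK2 replicate 1 the log2 fold change was -0.061. The proliferation marker gene Mki67 was at 77.7 and 107 FPKM in control libraries and 81.9 and 98.95 FPKM with DKK2, both DKK2 libraries between the controls.

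The condensin I subunits did not share a pattern across the libraries. The ATPase gene Smc4 was at 133 and 177 FPKM and 208 and 106 FPKM (-0.05 ± 0.41), and Ncapg, a HEAT-repeat subunit, at 37.7 and 58.7 FPKM and 99.5 and 41.3 FPKM (0.44 ± 0.50, 95% interval -0.86 to 1.74). Both were highest in DKK2 replicate 1. Ncapd2, the other HEAT-repeat subunit, was lowest there, at 66.8 and 60.5 FPKM in control libraries and 39.1 and 70.5 FPKM with DKK2 (-0.27 ± 0.36). Without DKK2 replicate 1 the log2 fold change was -0.18 for Ncapg and 0.15 for Ncapd2. The kleisin gene Ncaph (52.8 and 49.8 FPKM and 65.02 and 43.9 FPKM) was again highest in DKK2 replicate 1, while Smc2 (63.6 and 78.5 FPKM and 72.2 and 50.7 FPKM) was highest in control replicate 2. Ncapg spanned the widest ratio of the 46 between its highest and lowest library, 2.64.

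For most of the 46 genes a gap between the 2 libraries of a group was larger than the difference between the groups. These are unlike measures: a gap compares single libraries, while the group difference compares means of 2, which vary less. Gaps tend to be the larger even without an effect of DKK2, more so where either of 2 gaps counts. DKK2 replicate 2 minus DKK2 replicate 1 had a median log2 difference of -0.27 over the 46 genes, from -1.25 for Ncapg to 0.94 for Foxm1, beside 0.07 over all genes tested. Control replicate 2 minus control replicate 1 had a median of 0.21, from -0.50 for Cenpa to 0.92 for Ccnb1, beside -0.08 over all genes. The mean difference between the groups was smaller than one or both of these gaps in 41 of the 46 genes, and in 84.4% of all genes tested. The exceptions were Cdc25b, Aurkb, Pttg1, Cenpf and Kif23.

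DKK2 replicate 1 was the highest library in 21 of the 46 genes (45.7%, against 27.7% of all genes tested) and the lowest in 7 (15.2%, against 35.5%). DKK2 replicate 2 was the lowest in 19 (41.3%, against 25.7%). In 12 genes DKK2 replicate 1 lay above both controls and DKK2 replicate 2 below both, a pattern held by 13.0% of all genes tested. The reverse held for 3, namely Plk1, Ncapd2 and Espl1, and for 12.9% of all genes tested. All 4 pairs of a DKK2 library with a control gave different medians: DKK2 replicate 1 was 0.24 above control replicate 1 and 0.05 above control replicate 2, while DKK2 replicate 2 was at 0.00405 and -0.17 against the same controls. Between its highest and lowest library a mitosis gene varied by a median ratio of 1.48, and 24 of the 46 stayed under 1.5. The median was 1.69, and 33.5% stayed under 1.5, over the 11773 genes tested that were above 0 in all 4 libraries. These sets were not matched for level, and most mitosis genes lay above the median level of the genes tested.

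GC content of the transcript moved with these gaps. GC content was taken from the longest protein-coding transcript of the GENCODE M21 annotation by symbol and was available for 46 of 46 genes and for 96.1% of the genes tested. Over the 46 genes it correlated with the gap between the DKK2 libraries (replicate 2 minus 1) with a Pearson correlation of 0.61 and a Spearman correlation of 0.57, across genes, which share the same libraries and are not independent replicates. Over the 11801 genes tested with a GC value these were 0.40 and 0.51. Mitosis genes with under 45% GC were lower in DKK2 replicate 2 than in replicate 1 in 14 of 16 cases (median -0.60), those with 45 to 50% in 13 of 16 (median -0.27) and those with 50% or more in 5 of 14 (median 0.11). Ncapg (39.8% GC), Smc4 (40.2%) and Bub1 (41.04%) stood at one end, and Foxm1 (54.6%), Ncapd2 (54.03%), Plk1 (55.98%) and Espl1 (56.1%) at the other. Birc5 (47.4%), Spc25 (45.5%) and Ube2c (55.5%) were also far higher in DKK2 replicate 1, at middle or high GC content. At low GC content, Ect2 (40.2%) and Cenpe (42.9%) were higher in DKK2 replicate 2, by 0.23 and 0.02, and Nusap1 (41.8%) was nearly level (-0.04).

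Between the controls (replicate 2 minus 1) the Pearson and Spearman correlations with GC content were -0.37 and -0.38 over the 46 genes. For DKK2 minus control they were -0.29 and -0.26, against -0.06 and -0.10 over all genes. With a GC correction, chosen after seeing the data, the median gap between the DKK2 libraries was -0.23 in place of -0.27, and its range -1.09 to 0.62 in place of -1.25 to 0.94. The median log2 fold change of the 46 genes was then -0.01, and 0 of the 46 passed limma (adjusted p of at least 0.937 for each, 0 at an unadjusted p under 0.05). The median GC content of the 46 was 46.9%, against 49.5% of the genes tested.

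**Figure D3:**
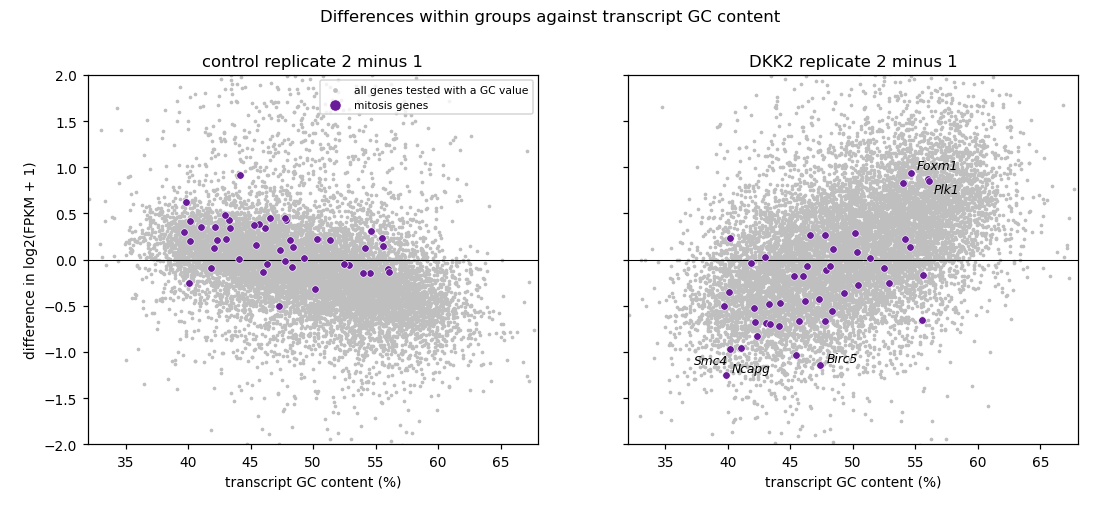
Difference between the 2 libraries of each group in log2(FPKM + 1), against the GC content of the transcript (%). Purple points are the 46 mitosis genes and grey points all genes tested with a GC value (375 grey points of the control panel and 212 of the DKK2 panel lie outside the axes). In the DKK2 panel, genes low in GC such as Ncapg and Smc4 lie below 0 and genes high in GC such as Foxm1 and Plk1 above 0, and the grey points slope the same way.

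Markers of NK cells were high and those of other cells differed between the libraries. All 12 of 12 NK markers were above 0 everywhere, with sums of 18200 and 15300 FPKM in the controls and 12700 and 11900 FPKM with DKK2. Most of that sum was Gzmb (granzyme B), at 11540.0 and 9908 FPKM in the controls and 6895 and 6115 FPKM with DKK2, and 8 of the 12 markers had a higher mean with DKK2 (median log2 fold change 0.10, 0 passed limma, 0 at an unadjusted p under 0.05). Neutrophil markers (12 of 12 found) summed to 1.18 and 65.8 FPKM in the controls and to 3540 and 127 FPKM with DKK2. Control replicate 1 lacked 6 of them, and the largest sum was in DKK2 replicate 1. The summed level of the mitosis genes, and that of all genes tested, was highest in that library too. Monocyte and macrophage markers (14 of 14) summed to 66.7 and 509 FPKM and to 1080 and 876 FPKM, with C1qa and C1qc listed at 0 in control replicate 1. T cell markers (12 of 12) summed to 189 and 265 FPKM in the controls and 366 and 342 FPKM with DKK2, with Cd8a and Cd8b1 listed at 0 in control replicate 1. B cell and plasma cell markers (12 of 12) summed to 1.11 and 30.7 FPKM and to 14.3 and 46 FPKM. Erythroid progenitor markers (12 of 12) summed to 336 and 288 FPKM and to 256 and 203 FPKM, nearly all from Tfrc and Car2, while Slc4a1 and Alas2 stayed at or near 0. The part of these cells in the levels of the mitosis genes was not tested.

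Read totals are not in the deposited table. Ratios between low values put control replicate 1 as the most deeply sequenced. Relative to it, control replicate 2 reached 0.351, DKK2 replicate 1 0.398 and DKK2 replicate 2 0.401, on the premise that the authors scaled every library by its own total. Each value rests on the most frequent ratio, found in 236 of 2913, 303 of 2981 and 278 of 2939 genes in that order. That ratio was taken as 1 fragment against 1 fragment, which was not checked.

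The wider mitotic machinery was compared with lists of its other genes. Other kinetochore and centromere genes had 8 of 30 higher and 22 lower (median -0.11), with Zwint, which recruits the checkpoint, at 125 and 127 FPKM in control libraries and 159.8 and 118 FPKM with DKK2. Mlf1ip (CENP-U) was the farthest from 0 of that list, at 6.8 and 10.5 FPKM and 7.23 and 5.14 FPKM (-0.42 ± 0.34). Cohesin and its regulators had 3 of 15 higher and 12 lower (median -0.09). Among them Smc1a, a core subunit, was at 151 and 152 FPKM and 130.3 and 139 FPKM (-0.17 ± 0.24), and Hdac8, which recycles cohesin, at 10.7 and 9.5 FPKM and 12.2 and 15.4 FPKM (0.41 ± 0.26). For the anaphase-promoting complex 6 of 15 were higher and 9 lower (median -0.04), with Anapc5 at 121 and 117 FPKM and 96.2 and 113 FPKM and Anapc7 at 19.3 and 15.8 FPKM and 23.1 and 24.2 FPKM (0.42 ± 0.25). None of the genes of these 3 lists passed limma (adjusted p = 0.9996 for each named gene, 0 genes at an unadjusted p under 0.05).

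Other mitotic motors and spindle genes were split evenly, 10 higher and 10 lower of 20 (median -0.01). Tacc3, a spindle stabilizer, was at 120.3 and 111 FPKM in control libraries and 213 and 95.5 FPKM with DKK2, again with DKK2 replicate 1 apart. Gtse1, a microtubule-binding protein, was at 14.7 and 10.3 FPKM and 6.99 and 11.6 FPKM (-0.41 ± 0.35). Of the 3 condensin II subunits, Ncapg2 was at 30.6 and 33.4 FPKM in control libraries and 24.2 and 19.4 FPKM with DKK2 (-0.54 ± 0.25), without overlap, and Ncaph2 at 114 and 109 FPKM and 108 and 130.5 FPKM. Other regulators of mitotic entry and exit were split 9 and 9 of 18 (median -0.02). They include the CDK subunit gene Cks1b at 154 and 87.6 FPKM and 134 and 126 FPKM, and Fam64a (PIMREG) at 18.03 and 16.1 FPKM and 25.9 and 24.6 FPKM (0.54 ± 0.24), without overlap.

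Regulators of DREAM, MuvB and E2F had 5 of 18 higher and 13 lower (median -0.23). In 6 of them the DKK2 libraries both lay under the controls (33.3%, against 14.8% of all genes). Over the related lists this share ran from 5% (other motors and spindle genes) to 66.7% (2 of 3 condensin II genes). It was also 33.3% for cohesin and 40% for G1 genes. The share with both DKK2 libraries above the controls ran from 0% to 11.1% over these lists, against 11.8% of all genes. Mybl2, which encodes the B-MYB that joins MuvB on CHR promoters, was at 23 and 14.97 FPKM in control libraries and 7.17 and 13.1 FPKM with DKK2 (-0.87 ± 0.39). Rbbp4, a histone-binding MuvB subunit, was at 262 and 304 FPKM and 394 and 239 FPKM (0.12 ± 0.35). DNA replication genes, which act in the phase before mitosis, had 10 of 41 higher and 31 lower (median -0.12), and in 12 the DKK2 libraries both lay under the controls (29.3%, against 14.8% of all genes). The helicase subunit gene Mcm6 was at 248 and 230.2 FPKM and 239.7 and 214 FPKM (-0.08 ± 0.26), and Orc1, of the origin recognition complex, at 31.8 and 22.9 FPKM and 16.1 and 9.6 FPKM (-1.05 ± 0.35). G1 cyclins, CDKs and inhibitors had 1 of 10 higher and 9 lower (median -0.21), with Cdk4 at 699.9 and 428 FPKM and 470.2 and 442 FPKM (-0.26 ± 0.35) and Cdk6 at 21.9 and 21.9 FPKM and 6.79 and 13.4 FPKM (-1.11 ± 0.37). None of the genes of these lists passed limma either (adjusted p = 0.9996 for each named gene), with Orc1 and Cdk6 alone at an unadjusted p under 0.05, and the difference between these lists and the mitosis genes was not tested.

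**Figure D4:**
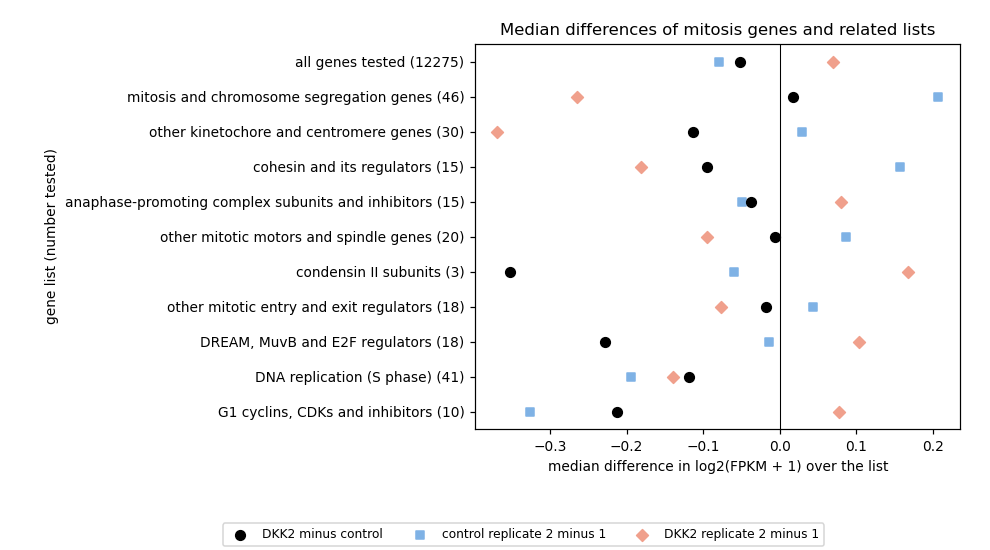
Median difference in log2(FPKM + 1) over each gene list, for DKK2 minus control (black), control replicate 2 minus 1 (blue) and DKK2 replicate 2 minus 1 (red), with the number of genes tested in parentheses. The mitosis genes have a median of 0.02 for DKK2 minus control, while the 2 within-group medians, 0.21 and -0.27, lie far on either side.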

How the data were processed

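Strand-specific total RNA libraries of 2 control and 2 DKK2 samples were sequenced, per the labels' protocols. The authors deposited FPKM values, 1 column per library, per the file headers. Build mm9, edgeR, CASAVA, Cuffdiff 2.1.0 and TopHat2 2.1.0 are listed, without roles, per the submitters' processing notes. The annotation, use of strand and treatment of multiply mapped fragments are not given in the sources used here, and genes that overlap or have near-identical copies are uncertain. All 4 value columns matched a sample by name.

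Values were taken as log2(FPKM + 1), which understates changes of low genes. The 12275 genes averaging 1 FPKM or more were tested with limma 3.58.1 in R 4.3.3 (lmFit, eBayes with a trend), two-sided, with Benjamini-Hochberg adjustment and a threshold of 0.05. The fit was run on simulated data with the same spread for every gene and independent errors. That setting lacks the gaps between libraries that ran with GC content, so it does not show how the fit performs on these libraries. GC content came from GENCODE M21 and promoters from RefSeq on GRCm38.p6, by symbol only. Ratios between values under 0.3 FPKM gave relative depth. FPKM carry no counts, so no count model was used.

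The genes, lists and tests were chosen with earlier results of these data known. All 46 mitosis genes are accounted for. Fold changes are given for the 2 most abundant per role, the 3 highest and 3 lowest fold changes and the 3 largest gaps between controls, and for each related list for the most abundant gene and that with the largest fold change. Values of the other genes are given by role. Alternatives changed the pseudocount, filter, scaling, trend and replicate block, left out each library in turn, and added a GC correction.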

Additional observations from a re-analysis of the deposited data

How the results depend on the processing

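Of the 46 mitosis genes, 0 passed limma under each alternative run, while the count at an unadjusted p under 0.05 reached 6 without DKK2 replicate 2 (855 of all 12275 genes) and 1 with no filter (949 of 22869). With a library left out, the lone library of its group is assumed to vary like the other group. Their median log2 fold change moved from 0.02 to 0.08 with median scaling and to 0.05 with quantile normalization, and lay between -0.073 and 0.17 when a library was left out, so its sign rested on single libraries. Genes called in the whole table, 1 higher and 3 lower, were 2 and 3 with median scaling and with quantile normalization, 1 and 2 without the trend, 1 and 4 with a pseudocount of 0.1, 0 and 0 with no filter and with the GC correction (limma, 949 and 412 genes at an unadjusted p under 0.05, against 226), and 0 in each direction with each library left out (150 to 855 genes). With the replicate number as a block (replicate block) they were 2 and 6. The replicate numbers were not taken to pair the libraries, since the labels do not say that they do. The deviations of same-numbered libraries correlated at 0.0117 over 12275 genes. That value does not settle pairing, because the gaps ran with GC content in opposite directions (Spearman -0.44 for the controls and 0.51 for DKK2).

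Of the 24 mitosis genes with a fold change given here, 21 changed sign without some 1 library, and 3 (Bub1b, Cenpf and Plk4) did not. The 24 leave out Ccnb2, Cdc25b, Pttg1, Aurkb and Kif23, whose groups did not overlap and whose sign therefore cannot change. The groups of Cenpf did not overlap either, so its sign was fixed in the same way. Over all 46 genes, 23 kept their sign without DKK2 replicate 1, and 35 to 38 without another library. The range was 0.0096 to 0.29 for Bub1b, 0.27 to 0.75 for Cenpf and -0.53 to -0.0023 for Plk4. The ranges were -0.19 to 0.022 for Aurka, -0.10 to 1.05 for Birc5, -0.36 to 0.091 for Ccna2, -0.53 to 0.39 for Ccnb1, -0.091 to 0.080 for Cdc20, -0.0095 to 0.24 for Cdca8, -0.41 to 0.26 for Cdk1, -0.32 to 0.18 for Cenpa, -0.76 to 0.092 for Espl1, -0.90 to 0.035 for Foxm1 and -0.10 to 0.25 for Mad2l1. They were -0.69 to 0.15 for Ncapd2, -0.18 to 1.06 for Ncapg, -0.068 to 0.026 for Nusap1, -0.078 to 0.58 for Prc1, -0.12 to 0.20 for Racgap1, -0.53 to 0.43 for Smc4, -0.19 to 0.85 for Spc25, -0.061 to 0.63 for Top2a, -0.43 to 0.024 for Tpx2 and -0.21 to 0.44 for Ube2c. With median scaling Cdc20 (0.062), Nusap1 (0.047) and Smc4 (0.018) changed sign, with quantile normalization Cdc20 (0.031) and Nusap1 (0.011), and with the GC correction Cdc20 (0.065) and Racgap1 (-0.012). The cause was not tested beyond which library or scaling was altered. Counting matches on the gene strand only, CHR stood in 55.3% and CCAAT in 44.7% of the 38 promoters, against 8.07% and 25.8% of the genes tested.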
